A study of Mus musculus with 10 samples.

Results

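Guanylate-binding protein (GBP) genes were examined in CT26 tumors that were resected before a poly(I:C) hydrogel was applied. The members were taken by gene name and are Gbp2, Gbp3, Gbp4, Gbp5, Gbp6, Gbp7, Gbp8, Gbp9, Gbp10 and Gbp11. All 10 were found among the 36009 genes of the table and all 10 passed the filter on low counts, as did 16041 genes in all. The CT26 line comes from a mouse colorectal carcinoma. Poly(I:C) mimics viral double-stranded RNA and is sensed by Toll-like receptor 3 and by cytosolic RNA sensors. The tumors grew subcutaneously in wild-type female BALB/c mice, whose age was not given in the labels, and every sample was untreated when it was taken. Responders (n = 6) were mice whose tumor later responded to the hydrogel, and non-responders (n = 4) were mice whose tumor did not. The paper counted complete regression as response and growth without delay as non-response, and it describes these tumors as selected. The comparison therefore asks which pre-treatment features differed by later response.

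GBPs are large GTPases of the dynamin superfamily that are strongly induced by interferon gamma (IFNγ) and also respond to type I interferon. They assemble on the membranes of pathogen vacuoles and of bacteria in the cytosol, open these membranes, and promote inflammasome signaling through caspase-11 and AIM2. Both tumor cells and infiltrating immune cells can express them after interferon exposure. They act beside the immunity-related GTPases (IRGs), a second family of interferon-induced GTPases.

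In the mouse the genes lie in clusters on chromosomes 3 and 5 (GRCm38, GENCODE annotation). On the plus strand of chromosome 3 the order was Gbp5, Gbp7, Gbp3 and Gbp2, from chr3:142493978 to chr3:142638008, with Gbp2b, a family gene outside the 10, between Gbp3 and Gbp2. On the minus strand of chromosome 5 the genes were Gbp8, Gbp9, Gbp4, Gbp10, Gbp6 and Gbp11, from chr5:105014150 to chr5:105346472. The annotated span of Gbp8 overlapped those of Gbp9 and Gbp4. Gbp11 was annotated as a polymorphic pseudogene and the other 9 as protein coding.

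Because GBPs are textbook interferon targets, the start sites of the genes were read for the sequences that interferon-activated factors recognize. RefSeq promoter windows (GRCm38.p6, 250 bases before to 50 bases after a start) were matched for 4 members, Gbp2, Gbp3, Gbp5 and Gbp7, and for Gbp2b. Windows for Gbp4, Gbp6, Gbp8, Gbp9, Gbp10 and Gbp11 were not used here. Capitals mark matches to 2 motifs, each searched on both strands. The first is the core of the interferon-stimulated response element (ISRE), written as TTTC, any 2 bases and TTTC again, or on the other strand as GAAA, any 2 bases and GAAA. The second is the gamma-activated site (GAS), TTCNNNGAA, which reads the same on both strands.
Gbp5 (chr3:142496684-142496898, plus strand): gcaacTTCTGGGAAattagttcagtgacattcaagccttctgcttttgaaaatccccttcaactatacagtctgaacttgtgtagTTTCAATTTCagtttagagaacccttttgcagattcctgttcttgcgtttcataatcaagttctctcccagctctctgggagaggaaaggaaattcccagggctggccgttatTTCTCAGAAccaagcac
Gbp7 (chr3:142530222-142530300, plus strand): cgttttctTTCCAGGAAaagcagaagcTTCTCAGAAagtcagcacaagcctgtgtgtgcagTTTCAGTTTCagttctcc
Gbp3 (chr3:142559991-142560022, plus strand): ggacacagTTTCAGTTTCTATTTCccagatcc
Gbp2b (chr3:142594702-142594727, plus strand): acttctaaTTTCACTTTCttctttat
Gbp2 (chr3:142620596-142620621, plus strand): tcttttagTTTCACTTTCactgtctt

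The 4 members had 5 windows in all, and an ISRE core was found in 4 of them, 1 for each gene, with no match in a second window of Gbp3. It was found in 3.44% of all 32851 RefSeq windows of this length. In Gbp3 a pair of ISRE matches overlapped by sharing 4 bases. A GAS was found 2 times each in Gbp5 and Gbp7, against 8.30% of all windows with at least 1, and both motifs together stood in 0.454% of windows. The stretch from Gbp5 lies within the annotated span of Gbp5 itself, since some of its transcripts start further upstream, and 20 bases of the Gbp2 stretch fall in the first exon (5′ UTR) that GENCODE gives Gbp2. These are letter matches, and binding was not measured.

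Depth was 29065126 to 38042544 estimated counts in responders and 23374649 to 32986456 in non-responders. Values are in CPM, which scales each gene's count to a library total adjusted by TMM normalization. Of 8 markers of colorectal epithelium, 5 (Epcam, Krt8, Krt18, Krt19 and Vil1) were below 1 CPM in every tumor. Of the other 3, Krt20 measured 12.7 to 75.3 CPM, Cdh1 2.63 to 7.03 CPM and Cdx2 0.364 to 1.61 CPM. Non-responder 1 was the lowest tumor in every GBP gene, and values without it are given beside the results.

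All 10 GBP genes had higher estimates in responders, with log2 fold changes from 0.85 for Gbp7 to 1.59 for Gbp11 and a median of 1.0, against a median of -0.01 over all genes tested. Only Gbp11 passed the threshold (edgeR quasi-likelihood test, two-sided, Benjamini-Hochberg adjusted p under 0.05 over all genes). This is 1 of 10 members, where 8.06% of all genes passed (1293 genes), 4.71% of all genes as higher in responders. At an unadjusted p under 0.05 all 10 members were higher, against 15.6% of all genes. Groups did not overlap for 6 members, Gbp4, Gbp7, Gbp8, Gbp9, Gbp10 and Gbp11, against 5.84% of all genes not overlapping in this direction. In bulk tumors, fewer cells of a type and less RNA per cell cannot be told apart. The plot of CPM by tumor shows each gene in each tumor.

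**Figure D1:**
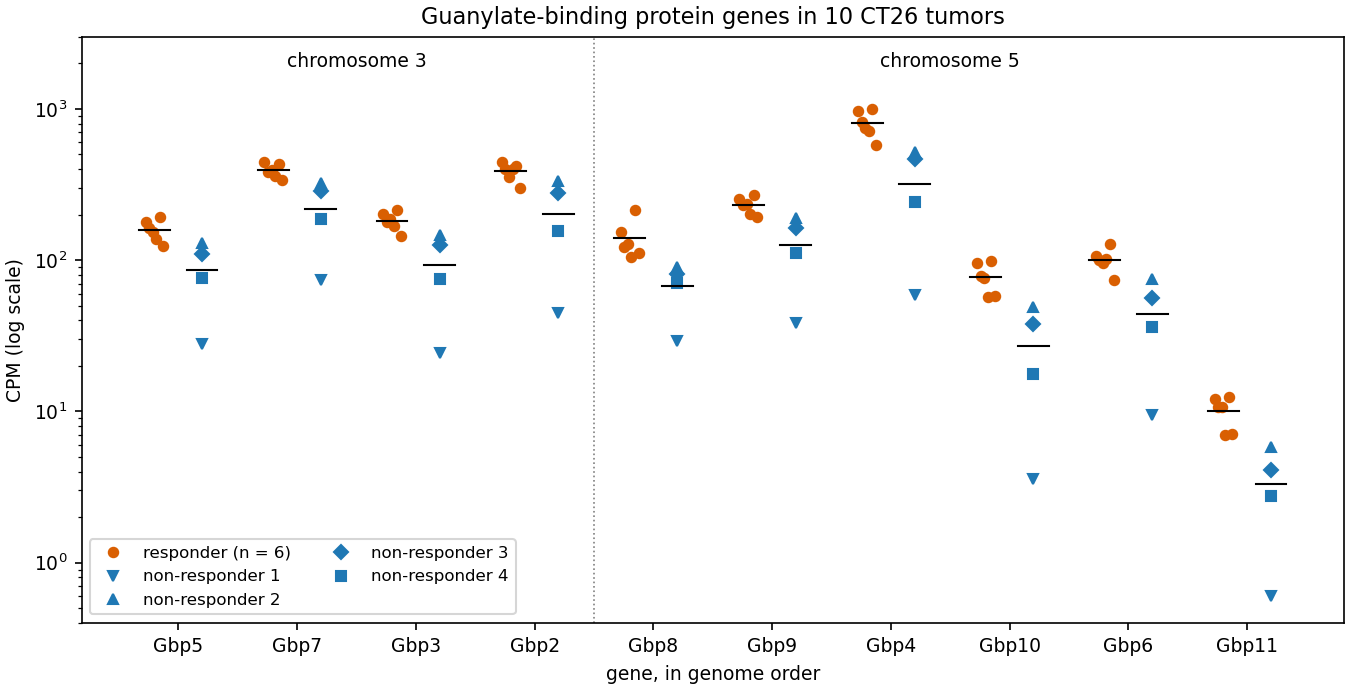
CPM (log scale) of the 10 GBP genes in genome order, with responders in orange, the 4 non-responders in blue by symbol, and horizontal bars for group means. Non-responder 1 is the lowest tumor for every gene, and Gbp4 is the most abundant member by CPM, between 581 and 998 in responders.

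Gbp2, which is recruited to vacuoles of Toxoplasma and to cytosolic bacteria, measured 302, 399.8 and 448 CPM in responders (lowest, median and highest) and 44.6, 334, 278 and 157 CPM in non-responders 1 to 4. The groups overlapped, since responder 6 lay below non-responder 2. Its log2 fold change was 0.93 ± 0.40 (SE), with an adjusted p of 0.153, the highest of the 10. Gbp3 measured 144, 183 and 213 CPM in responders and 24.4, 148, 125 and 74.8 CPM in non-responders 1 to 4. Responder 6 again lay just below non-responder 2, and the log2 fold change was 0.97 ± 0.37 (SE; adjusted p = 0.108). Gbp5, a prenylated GBP tied to inflammasome assembly, measured 124, 158 and 192 CPM in responders and 27.9, 129.9, 110.1 and 75.9 CPM in non-responders 1 to 4. It showed the same overlap of 1 responder with 1 non-responder and a log2 fold change of 0.88 ± 0.32 (SE; adjusted p = 0.0997). Gbp7, linked to the phagocyte oxidase in macrophages, was the only chromosome 3 member whose groups were apart, by a narrow margin. Its values were 341, 389 and 442 CPM in responders and 74.3, 323, 286 and 187 CPM in non-responders 1 to 4, and the log2 fold change was 0.85 ± 0.31 (SE; adjusted p = 0.0969).

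On chromosome 5, Gbp4 had the largest difference in CPM. It measured 581, 782 and 998 CPM in responders and 59.2, 519, 464 and 243 CPM in non-responders 1 to 4, with no overlap and a log2 fold change of 1.33 ± 0.45 (SE; adjusted p = 0.0839). Gbp9 measured 194, 233 and 269.9 CPM in responders and 38.3, 190.4, 164 and 111 CPM in non-responders 1 to 4. Its groups were separated by less than 4 CPM, and the log2 fold change of 0.88 ± 0.33 (SE; adjusted p = 0.108) was the smallest of this cluster. Gbp8 measured 104, 125 and 216 CPM in responders and 29.1, 90.7, 80.7 and 70.9 CPM in non-responders 1 to 4. The highest value came from responder 5, the groups were apart, and the log2 fold change of 1.04 ± 0.29 (SE) had an adjusted p of 0.0522, just outside the threshold.

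Gbp6 and Gbp10 are near copies of each other and both have been tied to the control of intracellular bacteria in macrophages. Gbp6 measured 74.0, 101 and 127 CPM in responders and 9.49, 75.4, 56.0 and 36.0 CPM in non-responders 1 to 4, so that responder 6 and non-responder 2 overlapped (log2 fold change 1.19 ± 0.40, SE; adjusted p = 0.0813). Gbp10 measured 56.8, 77.5 and 98.7 CPM in responders and 3.55, 49.3, 37.8 and 17.6 CPM in non-responders 1 to 4, with no overlap (1.52 ± 0.49, SE; adjusted p = 0.0727). Gbp11 was the least abundant member. It measured 6.996, 10.7 and 12.5 CPM in responders and 0.606, 5.79, 4.12 and 2.74 CPM in non-responders 1 to 4. Its groups did not overlap and it was higher in responders by 3.02-fold (log2 fold change 1.59 ± 0.42, SE; adjusted p = 0.0438). Its value in non-responder 1 rested on 14.6 estimated counts.

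The call of Gbp11 depended on which tumors entered. It was lost when responder 1, 2, 3, 5 or 6, or non-responder 1, 3 or 4 was left out, with adjusted p-values of 0.0682, 0.0762, 0.0837, 0.0769, 0.0531, 0.0586, 0.0707 and 0.109 in that order. Its log2 fold change stayed between 1.26 and 2.01 in all leave-one-out fits. Without non-responder 2, which had the highest GBP values of its group, 6 members passed (Gbp5, Gbp6, Gbp7, Gbp8, Gbp10 and Gbp11), where 11.7% of all genes did and 7.07% as higher. Without responder 4, Gbp8 and Gbp11 passed, where 10.1% of all genes did.

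The differences were smaller without non-responder 1. The 10 estimates then ran from 0.57 to 1.26, all higher in responders. All were at an unadjusted p under 0.05, against 13.2% of all genes as higher in responders. None passed adjustment (adjusted p from 0.0586 to 0.126), and 16 genes did in all, 0.0982% of those tested. Without non-responder 4 the estimates ran from 0.78 to 1.51, and 5 of 10 members were at an unadjusted p under 0.05. In that fit 13.5% of all genes had such a p as higher in responders, and 4106 genes had it in either direction. There edgeR called 0 genes. DESeq2 called 4 members (Gbp4, Gbp8, Gbp10 and Gbp11), where it called 16.6% of all genes, and limma-voom called 3 (Gbp8, Gbp10 and Gbp11), where it called 6.75%. At an adjusted p under 0.10 in edgeR, 7 members passed, all but Gbp2, Gbp3 and Gbp9, against 18.7% of all genes and 10.5% as higher.

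**Figure D2:**
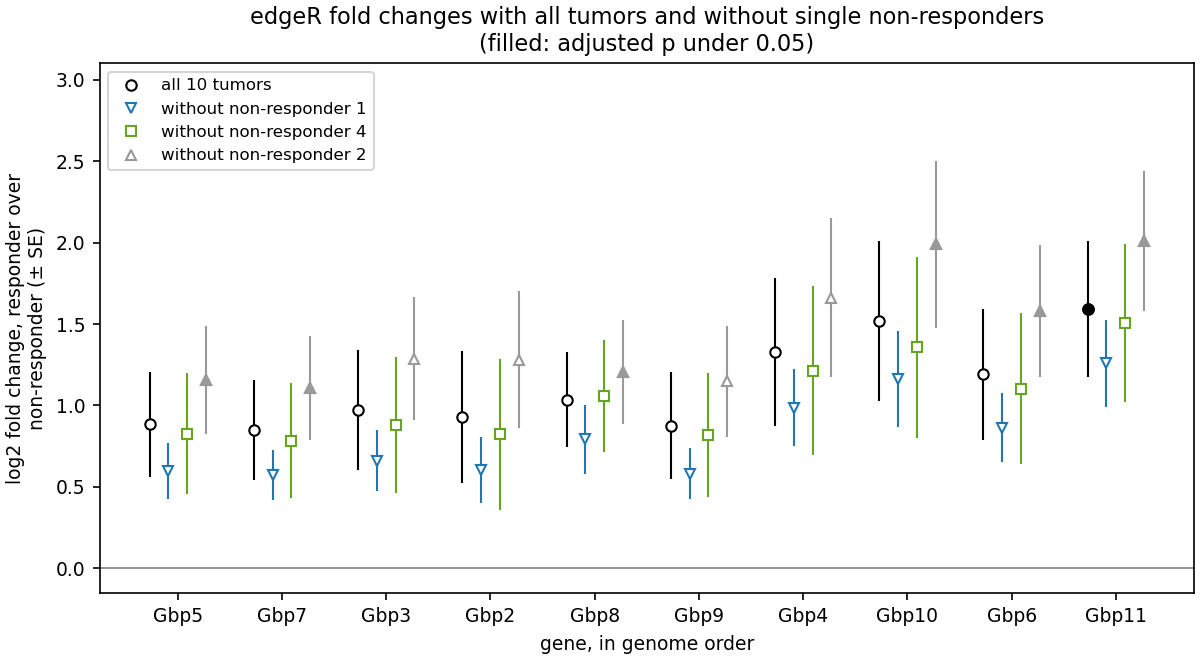
edgeR log2 fold change of responders over non-responders (± SE) for each GBP gene, with all 10 tumors and without single non-responders, filled where the adjusted p was under 0.05. All estimates lie above 0, those without non-responder 1 are the smallest, and with all tumors only Gbp11 is filled.

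Over the family, the mean log2 CPM of the 10 genes was 7.27 ± 0.25 (SD) in the 6 responders against 5.87 ± 1.20 (SD) in the 4 non-responders. The means differed by 1.40, or by 0.83 with non-responder 1 left out. The 4 non-responders measured 4.17, 6.85, 6.57 and 5.90, and responders ran from 6.93 to 7.59. Their order, with non-responder 2 highest, then 3, 4 and 1, was the same in each of the 10 genes. The coefficient of variation was 10.1% to 29.6% by gene in responders and 39.9% to 75.4% in non-responders. Without non-responder 1 it was 12.3% in non-responders for Gbp8, below the 29.6% of responders, and 26.0% to 45.9% for the other 9 genes, each above that of responders. The mean of responders was 4.78 times the CPM of non-responder 1 for Gbp8 and 21.8 times for Gbp10, the ends of the range, and 1.48 to 2.37 times the mean of non-responders 2 to 4.

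The members moved together across tumors. Pearson correlations of log2 CPM over the 10 tumors ran from 0.920 to 0.999 for the 45 pairs, from 0.861 to 0.998 after the group means were subtracted, and from 0.761 to 0.996 without non-responder 1. These are a description, since the pairs share libraries and some share sequence.

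Within this shared pattern the fold changes of the clusters overlapped, with the larger median on chromosome 5. Log2 fold changes of the 4 chromosome 3 members lay between 0.85 and 0.97 (median 0.91), and those of the 6 chromosome 5 members between 0.88 and 1.59 (median 1.26). The SE of single members ran from 0.29 to 0.49. Gbp2b, which lies in the chromosome 3 cluster outside the 10, had 1.03 ± 0.41 (SE). It enters neither this range nor the ratios that follow. The summed CPM of the chromosome 5 genes over that of the chromosome 3 genes was 1.21 ± 0.09 in responders (SD, n = 6; range 1.12 to 1.37). It was 0.818, 0.996, 1.01 and 0.973 in non-responders 1 to 4. The ratio of Gbp4 to Gbp2 was 2.07 ± 0.20 in responders (SD, n = 6; range 1.81 to 2.38) and 1.33, 1.55, 1.67 and 1.55 in non-responders 1 to 4. Neither ratio overlapped between groups, and non-responder 1 was the lowest in both. Gbp4 alone made up 32.2% ± 1.47 (SD) of the summed family CPM in the 6 responders and 25.2% ± 4.43 (SD) in the 4 non-responders. The ratios were formed with the fold changes in view and are given without a test.

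**Figure D3:**
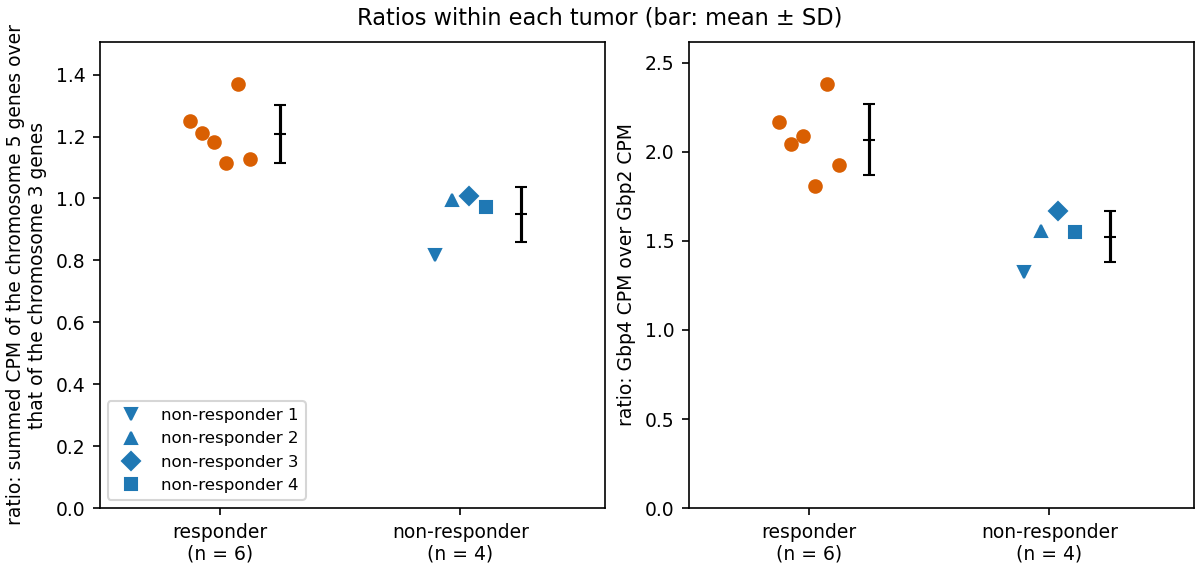
Left, summed CPM of the 6 chromosome 5 GBP genes over that of the 4 chromosome 3 genes, and right, Gbp4 CPM over Gbp2 CPM, for each tumor, with mean ± SD beside the points. The 6 responders lie above the 4 non-responders in both ratios.

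Levels between genes were compared per kilobase of annotated exon. In responders the order was Gbp2 (154 CPM per kb), Gbp4 (108), Gbp7 (69.9), Gbp3 (55.9), Gbp9 (44.6), Gbp8 (40.4), Gbp5 (23.9), Gbp10 (20.0), Gbp6 (17.0) and Gbp11 (3.72), all in CPM per kb. The steps from Gbp9 to Gbp8, from Gbp5 to Gbp10 and from Gbp10 to Gbp6 were smaller than the larger SD of the pair. In non-responders the order was the same, except that Gbp6 (7.43 CPM per kb) stood above Gbp10 (6.99 CPM per kb).

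How far the counts of these genes can be told apart was read from shared 31-base words of their annotated transcripts. Gbp10 shared 85.0% of its words with other GBP genes, most of them with Gbp6 (80.8%), and Gbp6 shared 51.4% of its words with Gbp10. Gbp11 shared 34.3%, Gbp8 31.1%, Gbp9 18.3% and Gbp4 13.5% of their words with other GBP genes. On chromosome 3 the shares were far lower, 5.64% for Gbp3, 4.85% for Gbp2, 3.69% for Gbp7 and 0.0299% for Gbp5. Outside the family, Gbp7 shared 10.8% of its words with Gm43802. The values of Gbp6 and Gbp10 are therefore uncertain one by one. Gbp11, the only member called with all tumors in edgeR, shared 19.9% of its words with Gbp8 and 18.2% with Gbp4. Both are more abundant, so the value of Gbp11 is also uncertain in part.

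Another annotated gene, Gm43302 (chr5:105214907-105293695, minus strand), spans Gbp10 and Gbp6 and holds 76.7% of the words of Gbp10 and 67.8% of those of Gbp6. With Gbp6 and Gbp10 summed, responders had 178 ± 33.2 CPM (SD, n = 6) and non-responders 1 to 4 had 13.1, 125, 93.8 and 53.7 CPM. The log2 fold change of the sum was 1.32 ± 0.44 (SE; adjusted p = 0.0802). With Gm43302 added it was 1.16 ± 0.42 (SE; adjusted p = 0.0975), so the sums kept the direction and did not pass either.

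**Figure D4:**
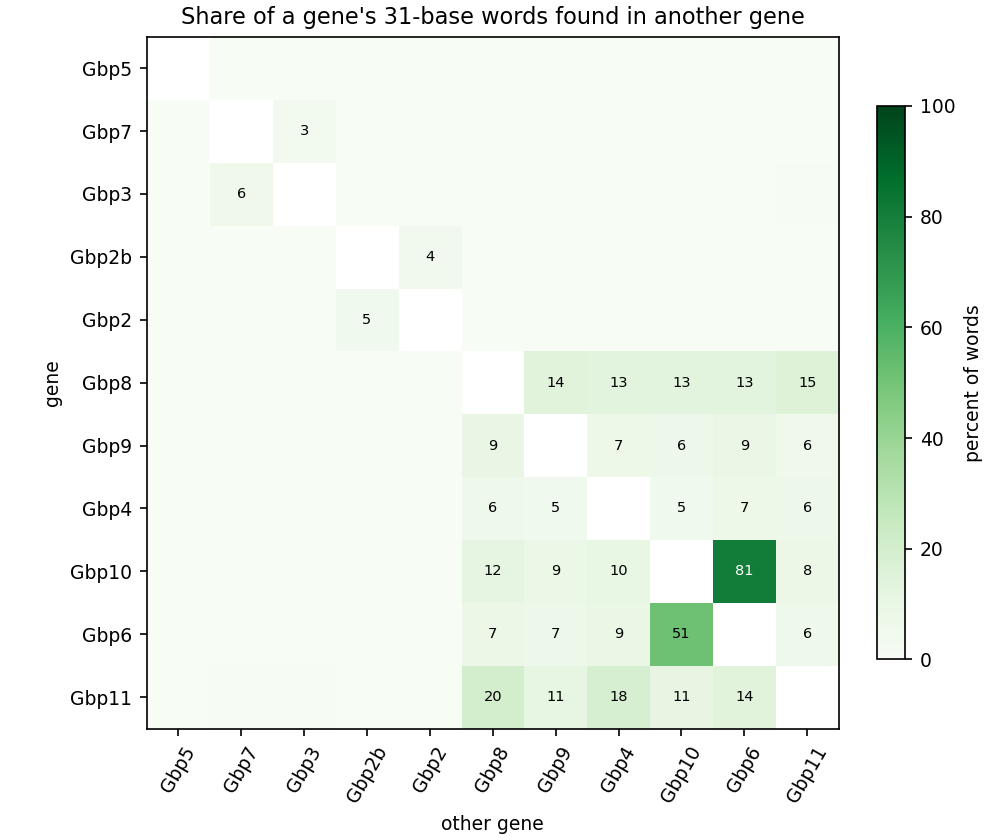
Percent of the 31-base words of each GBP gene (rows) that also occur in another GBP gene (columns), in genome order. The darkest cells are Gbp10 in Gbp6 (81%) and Gbp6 in Gbp10 (51%), and no chromosome 3 gene shares more than 6% with another.

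Markers of immune cells were read beside the GBP genes. Ptprc (CD45), which all leukocytes express, was higher in responders (log2 fold change 0.60 ± 0.15, SE; adjusted p = 0.0413), at 326 to 499 CPM against 181, 307, 281 and 233 CPM in non-responders 1 to 4. The call of Ptprc was lost in all leave-one-out fits except those without responder 4 or non-responder 2, with adjusted p-values from 0.0506 (without responder 6) to 0.103 (without non-responder 4). Its log2 CPM correlated with the GBP mean at r = 0.934 over 10 tumors, and at r = 0.862 after the group means were subtracted. When Ptprc entered the fit as a covariate, the GBP estimates were between -0.19 and 0.29, 3 of 10 were higher in responders, 0 members were at an unadjusted p under 0.05, and edgeR called 0 genes in all (845 at an unadjusted p under 0.05).

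The other marker calls are read against the 8.06% of all genes that passed in edgeR, 16.6% in DESeq2 and 6.75% in limma-voom. At an unadjusted p under 0.05 in either direction, edgeR had 4665 of the 16041 genes tested. Macrophage markers were called higher for 5 of 8 genes, and their summed CPM was 2919 to 4343 in responders and 2052 to 2761 in non-responders. Cytotoxic lymphocyte markers were called for 2 of 7 (145 to 329 against 31.2 to 149 CPM), natural killer cell markers for 2 of the 4 tested of 6 (51.5 to 105 against 11.7 to 43.1 CPM), monocyte markers for 2 of the 4 tested of 5 (178 to 271 against 85.5 to 165 CPM) and dendritic cell markers for 1 of 5 (245 to 321 against 116 to 274 CPM). None of these lists had a marker called lower, and none had a marker at 0 in all tumors. Estimates were higher in responders for 7 of 8 macrophage and 4 of 5 dendritic cell markers. Mrc1 (log2 fold change -0.13 ± 0.12, SE) and Zbtb46 (-0.16 ± 0.08, SE) had lower estimates, and Mertk (0.03) and Flt3 (0.01) were near 0. All 5 lists fell to 0 calls in edgeR without responder 3, non-responder 1 or non-responder 4. Cytotoxic markers also fell to 0 without responder 1, 2, 5 or 6 or non-responder 3. Natural killer cell markers also did so without responder 1, 2, 5 or 6. Monocyte markers also did so without responder 1, 2 or 5 or non-responder 3. DESeq2 called 5 macrophage, 5 cytotoxic, 4 natural killer cell, 3 monocyte and 2 dendritic cell markers. In the same order limma-voom called 5, 1, 2, 2 and 1. The cytotoxic marker called by limma-voom was Prf1, while edgeR called Cd8b1 and Nkg7. Their part in the GBP differences was not tested.

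Skeletal muscle markers were called for 2 of 5 genes, and their summed CPM was 348 to 1122 in responders and 308 to 402 in non-responders. These calls fell to 0 without responder 2, 3 or 5 or non-responder 1, 3 or 4, to 1 without responder 6 or non-responder 2, and rose to 5 without responder 4, while DESeq2 called 4 and limma-voom 1. With the muscle level as a covariate the GBP estimates stayed between 0.60 and 1.18, all higher in responders, with adjusted p-values of 0.74 or more, and edgeR called 0 genes (1065 at an unadjusted p under 0.05). Adipocyte markers had 0 of 4 tested genes called by edgeR or limma-voom with all tumors and 4 by DESeq2. In edgeR, 2 were called without responder 1 or 4, 3 without non-responder 2 and 0 in the other leave-one-out fits. Another scaling of the libraries gave 1 call, Fabp4. All 4 were at an unadjusted p under 0.05 in edgeR with all tumors. Their list had a summed CPM of 15.6 to 52.1 in responders and 8.54 to 19.2 in non-responders. Colorectal epithelial markers stood the other way. All 4 tested (Krt19, Krt20, Cdh1 and Cdx2) had lower estimates in responders, with a median log2 fold change of -0.80, and their list summed to 17.5 to 42.1 CPM in responders and 40.3 to 84.8 CPM in non-responders. With all tumors none was called by edgeR or limma-voom, 3 were at an unadjusted p under 0.05, and DESeq2 called Cdx2 as lower. Without non-responder 2, edgeR called Krt20 as lower. Endothelial and fibroblast markers, of which 5 each were tested, and the 1 keratinocyte marker tested had 0 calls by all 3 tools and 0 at an unadjusted p under 0.05. Their part in the GBP differences was not tested.

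The genes that work with GBPs were read from 5 lists chosen by role, against the 8.06% of all genes that passed in edgeR. DESeq2 called 16.6% of all genes and limma-voom 6.75%. At an unadjusted p under 0.05 in either direction, edgeR had 4665 of the 16041 genes tested. Relatives of the family (Gbp2b, Atl1, Atl2 and Atl3) had 0 of 4 genes called by edgeR, DESeq2 or limma-voom and 1 at an unadjusted p under 0.05. That gene was Gbp2b, known as mouse Gbp1, which measured 347, 469 and 524 CPM in responders and 49.1, 373, 299 and 180.4 CPM in non-responders 1 to 4. It had a log2 fold change of 1.03 ± 0.41 (SE; adjusted p = 0.123), within the range of the members. The atlastins Atl1, Atl2 and Atl3, GTPases that fuse membranes of the endoplasmic reticulum, had log2 fold changes of -0.09, -0.06 and 0.04.

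Of 12 genes of interferon signaling, from IFNγ and the interferon receptors to kinases and transcription factors, 0 were called by edgeR and 8 were at an unadjusted p under 0.05. DESeq2 called 5 and limma-voom 1. Estimates were higher in responders for 11, with a median log2 fold change of 0.24. Irf8, a transcription factor of myeloid cells, had the smallest p (log2 fold change 0.66 ± 0.19, SE; adjusted p = 0.0512). The receptor chain Ifnar2 (0.28 ± 0.08, SE; adjusted p = 0.0543), the kinase Tyk2 (0.21 ± 0.06, SE; adjusted p = 0.0632) and Irf9 (0.39 ± 0.14, SE; adjusted p = 0.102) followed. Ifng itself, named after its values were seen, was scarce, at 1.67, 2.85 and 4.89 CPM in responders and 0.202, 1.87, 2.04 and 0.935 CPM in non-responders 1 to 4 (log2 fold change 1.33 ± 0.49, SE; adjusted p = 0.102).

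Among the 5 lists chosen by role, the 8 IRG genes were nearest to the members in size of change. They had 8 of 8 estimates higher and a median log2 fold change of 0.90. None was called by edgeR, DESeq2 or limma-voom, and 7 were at an unadjusted p under 0.05. Iigp1, which attacks the vacuoles of parasites, measured 427, 551 and 664 CPM in responders and 49.9, 407, 371 and 187 CPM in non-responders 1 to 4 (log2 fold change 1.12 ± 0.43, SE; adjusted p = 0.116). Ifi47 (0.78 ± 0.31, SE; adjusted p = 0.129), Gm12250, known as Irgb10 (1.04 ± 0.42, SE; adjusted p = 0.129), and Irgm1, a regulator of the other IRGs (0.81 ± 0.33, SE; adjusted p = 0.134), were next by p.

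Inflammasome genes gave 2 calls of 8 in edgeR, both higher in responders, and 5 at an unadjusted p under 0.05. DESeq2 called 3 (Aim2, Pycard and Gsdmd) and limma-voom 2 (Aim2 and Pycard), all higher in responders. Pycard, the adaptor ASC, measured 10.9, 14.0 and 16.9 CPM in responders and 5.94, 9.52, 10.4 and 8.14 CPM in non-responders 1 to 4 (log2 fold change 0.73 ± 0.15, SE; adjusted p = 0.0299). Aim2, the sensor of cytosolic DNA, measured 10.1, 12.7 and 15.5 CPM in responders and 5.53, 9.71, 8.71 and 6.42 CPM in non-responders 1 to 4 (0.72 ± 0.17, SE; adjusted p = 0.0345). The groups did not overlap for either gene, against 5.84% of all genes not overlapping in this direction. The margins were narrow, at 10.9 against 10.4 CPM for Pycard and 10.1 against 9.71 CPM for Aim2. The call of Pycard was lost without responder 2 or 3 or non-responder 1 or 4 (adjusted p = 0.0568, 0.0656, 0.0607 and 0.0817). That of Aim2 was also lost without responder 1 or 5 or non-responder 3, with adjusted p-values from 0.0544 to 0.094 over the 7 tumors. Gsdmd, the pore-forming gasdermin, and Casp4, caspase-11, had log2 fold changes of 0.31 and 0.42 (adjusted p = 0.0855 and 0.126).

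Genes of membrane targeting, the autophagy conjugation and ubiquitin factors that bring GBPs and IRGs to vacuoles, had 0 of 11 called by edgeR, 5 at an unadjusted p under 0.05, and a median log2 fold change of 0.03. DESeq2 called 1, Sqstm1, as lower in responders, and limma-voom 0. Atg5 (0.14 ± 0.05, SE; adjusted p = 0.0777), the autophagy receptor Sqstm1 (-0.22 ± 0.07, SE; adjusted p = 0.0836), the ubiquitin ligase Trim21 (0.50 ± 0.20, SE; adjusted p = 0.119) and Atg3 (0.09 ± 0.04, SE; adjusted p = 0.124) had the smallest p. The heat map of log2 CPM sets these lists beside the members.

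**Figure D5:**
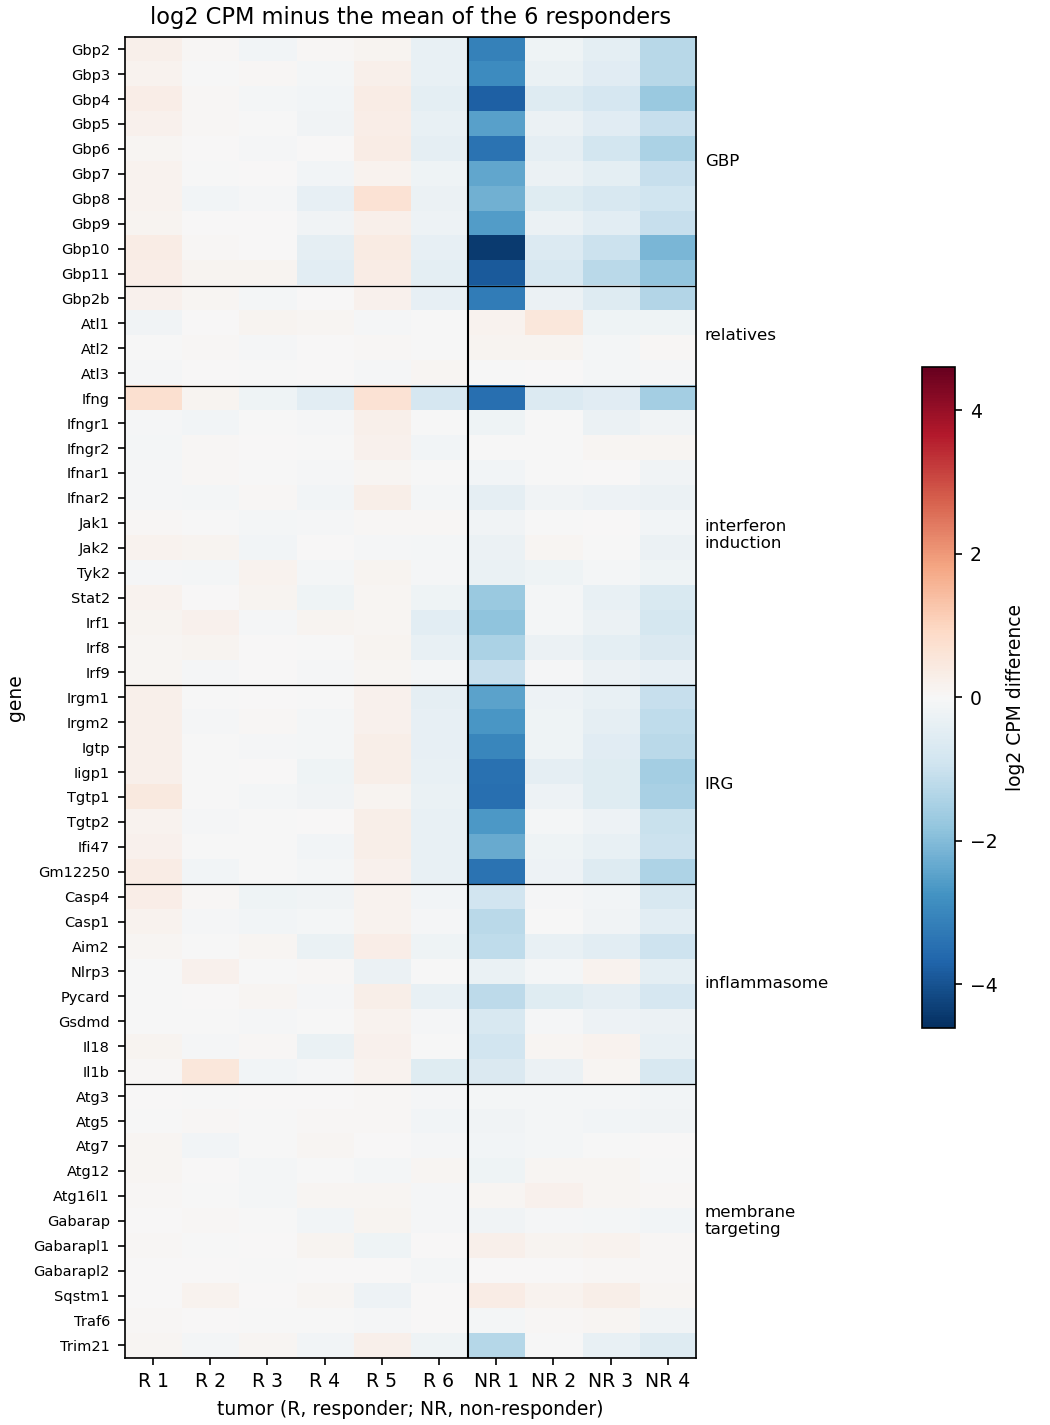
Log2 CPM of each gene in each tumor minus the mean of the 6 responders, for the GBP genes and the 5 lists, with blue below and red above that mean. GBP and IRG rows share a dark column in non-responder 1, a lighter one in non-responder 4, and pale columns in non-responders 2 and 3, while most membrane targeting rows are near 0 throughout.

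Across 13723 other genes with at least 1 CPM on average, the 8 whose log2 CPM was most like the GBP mean over the 10 tumors were Idnk (Pearson r = 0.998), Iigp1 (0.998), Gm43302 (0.998), H2-T23 (0.997), Tap1 (0.997), Ly6a (0.996), Igtp (0.996) and Hk3 (0.996). Iigp1 and Igtp are IRG genes, Tap1 and H2-T23 belong to antigen presentation, Ly6a encodes the surface protein Sca-1, Hk3 is a hexokinase, Idnk is a gluconokinase, and Gm43302 shares sequence with Gbp6 and Gbp10. Spearman's rho ran from 0.964 to 1. After the group means were subtracted r was 0.992 to 0.998, and over the 8 tumors left without non-responders 1 and 4, the farthest from the median, it was 0.954 to 0.992. Their log2 fold changes ran from 0.47 to 1.12 (adjusted p from 0.0684 to 0.139). These values describe shared libraries and were not tested.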

How the data were processed

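PolyA RNA from 10 tumors was sequenced, 6 responders and 4 non-responders by the response in the labels. Tumor numbers follow accession order within each group. The authors reviewed reads with FastQC, estimated transcript abundance with Kallisto and summed it to genes with tximport (mm10). What was deposited are expected counts, estimates of which 45.1% are fractional, without scaling to depth. The annotation release, tximport scaling and strand setting were not given in the sources used here. Reads of genes with shared sequence are split by estimation.

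Estimated counts were rounded and tested with edgeR 4.0.16 under R 4.3.3: filterByExpr (minimum count 10, minimum total 15), TMM, and the quasi-likelihood test with Benjamini-Hochberg adjustment over 16041 genes. No batch is labelled. Replicates are separate mice, and a prior count of 2 entered log2 CPM. The script was tested on simulated data. Alternatives used DESeq2 1.42.0, limma 3.58.1, other scaling and filters, left-out tumors, covariates and summed paralogs, of which the sum with Gm43302 was chosen after the data were seen. The members and lists were chosen with earlier results of these data known. Of each list, genes that passed and up to 4 with the smallest p are named (1 gene of the interferon list is not reported here), and of other genes the 8 most correlated with the GBP mean.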

Additional observations from a re-analysis of the deposited data

Results flagged for a closer look

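For every named gene and marker sum, a tumor was singled out where its gap to the nearest other tumor, as a share of the range of its group, passed Dixon's 95% critical value. Chance singles out about 1 in 20 groups, or 7.8 of the 156 examined, and 5 were found. None was a GBP gene. Responder 5 was high in Ifngr1, a chain of the IFNγ receptor, at 115 CPM where the other responders had 91.0 to 98.0 CPM (gap share 0.705). The same tumor was high in Gsdmd, at 139.6 CPM against 119 to 125 CPM (gap share 0.734), and in Ptprc, at 499 CPM against 326 to 388 CPM (gap share 0.643). Non-responder 2 was high in summed skeletal muscle markers, at 402 CPM against 308 to 319.8 CPM (gap share 0.873), and in summed keratinocyte markers, at 8.21 CPM against 2.69 to 2.96 CPM (gap share 0.952).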

How the results depend on the processing

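With edgeR and all tumors, 1293 genes, 1 GBP member and 2 of 43 genes of the 5 lists passed. DESeq2 called 2575 genes, 4 members and 9 list genes, limma-voom called 3 members, and an adjusted p under 0.10 gave 2999 genes, 7 members and 8 list genes. Leaving out 1 tumor gave 0 to 1897 genes, 0 to 6 members and 0 to 8 list genes. Fewest genes passed without non-responder 4 (0), non-responder 1 (16) or responder 3 (17). With the skeletal muscle or the Ptprc covariate 0 genes, 0 members and 0 list genes passed. With Ptprc, the log2 fold changes of 7 members turned sign, to -0.19 for Gbp2, -0.14 for Gbp3, -0.027 for Gbp4, -0.16 for Gbp5, -0.083 for Gbp7, -0.050 for Gbp8 and -0.16 for Gbp9, with adjusted p-values of 0.94 or more, and the difference of the GBP mean became -0.089. The cause was not tested. Under all other alternatives the members tested were higher in responders, and the GBP mean difference stayed between 0.84 (remade without non-responder 1) and 1.73. Other scalings and filters left Gbp11 the only member called. No paired analysis was possible because replicate numbers were given in accession order and pair no tumors across groups. With 4 non-responders, single tumors set much of the spread.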
